A study of Sus scrofa with 16 samples.

Results

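STAR, CYP11A1, CYP17A1 and CYP19A1 encode successive steps of the route from cholesterol to oestrogen, and their transcripts were followed in pig conceptuses through the stages of elongation. The genes were taken by their symbol in the platform annotation, where each had 1 probe, so that they were 4 of the 638 genes named by a probe with a single symbol and 4 of 1015 probes in all. Steroid synthesis starts when STAR moves cholesterol to the inner mitochondrial membrane, where CYP11A1 cleaves its side chain to give pregnenolone. In the endoplasmic reticulum CYP17A1 then hydroxylates and cleaves the steroid on the way to androgens, and CYP19A1, aromatase, turns androgens into oestrogens. The pig conceptus is known for releasing oestrogen around the time it elongates, a signal held to take part in the maternal recognition of pregnancy.

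Amplified RNA of whole pig embryos, labelled with phosphorus-32, had been hybridised to membranes spotted with PCR products of cDNA. The 16 arrays covered 4 stages, with 4 arrays each. Embryos of 1 to 5 mm were called small spherical, those of 6 to 11 mm large spherical, those of 13 to 45 mm tubular and those longer than 100 mm filamentous. No treatment, genotype, breed or day of pregnancy is given for any stage. Nothing says whether a stage's arrays stand for different animals, litters or pools. The p-values therefore set differences between stages against the spread between these arrays within stages. That spread may be technical, so the p-values may not extend to other animals or litters. Because whole conceptuses were used, fewer cells of a type and less RNA per cell cannot be told apart in any value below.

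Values are intensities on a linear scale. Array medians ran from 62.8 to 71.4, and the number of arrays limits the precision. The value is that of a spotted cDNA, so levels are compared between stages within a gene and not between genes. The pig has 3 aromatase genes that lie next to each other in the RefSeq gene table, CYP19A1, CYP19A2 and CYP19A3, and whether the probe annotated as CYP19A1 also captured transcripts of the other two was not tested. Of the 10 listed trophectoderm markers, 4 were measured (KRT8, KRT18, KRT19 and PLAC1), and their summed intensity was 336 to 478 for small spherical embryos, 375 to 484 for large spherical ones, 399 to 468 for tubular ones and 375 to 501 for filamentous ones. KRT18 makes up most of that sum, which therefore says little of PLAC1, the 1 marker of the 4 that passed in a comparison. For maternal endometrium 3 of 7 markers were measured (ACP5, PGR and VIM), and their sum was 58.9 to 73.4 for small spherical embryos, 42.7 to 61.1 for large spherical ones, 55.0 to 91.2 for tubular ones and 75.3 to 95.6 for filamentous ones. VIM averaged 35.8 in small spherical and 61.2 in filamentous embryos. ACP5 averaged 25.7 and 19.6 in these stages, and PGR 4.02 and 4.58. The higher filamentous sum thus came mainly from VIM, and none of the 3 markers passed in a comparison. For maternal blood 1 of 7 was measured, CD3E, which stayed between 0.330 and 4.34 on all 16 arrays. Of the hypoblast list 5 of 10 were measured (FN1, RBP4, TF, AFP and APOA1), with a sum of 303 to 424 for small spherical embryos, 338 to 443 for large spherical ones, 374 to 429 for tubular ones and 436 to 592 for filamentous ones. From small spherical to filamentous embryos the means of APOA1 (120 to 172), FN1 (147 to 191) and RBP4 (35.9 to 64.2) rose. The mean of TF fell (26.6 to 11.5) and that of AFP was near level (57.8 to 56.3), and none of the 5 passed in a comparison. Of the epiblast list 0 of 4 were measured. Over all tested probes, 6 of the 16 arrays correlated best with the mean of the other arrays of their own stage and 10 with that of another stage. Those 6 were each small spherical array, tubular array 4 and filamentous array 1. Each probe was first centred on its mean over all arrays, a centring that lowers the correlation with the own stage. The 4 arrays numbered 1, 1 per stage, deviated together from their stage means in all 6 pairs of stages (correlations of 0.270 to 0.495), so values from the arrays numbered 2 to 4 are given beside the leading results.

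STAR was the member that passed the test of stage. Its transcript was 3 to 4 times as abundant on the arrays of every stage after the small spherical one, and no difference among those later stages was detected. The probe read 38.7, 31.8, 50.8 and 38.8 in small spherical embryos and 84.6, 131, 145 and 178 in large spherical ones. It read 142, 187, 152 and 160.3 in tubular embryos and 113, 168, 193 and 140 in filamentous ones. All 12 later arrays were above the highest small spherical array, and the 3 later stages overlapped each other widely. Small spherical embryos averaged 40.0 ± 7.89, large spherical ones 135 ± 38.6, tubular ones 160.4 ± 19.4 and filamentous ones 153 ± 34.3 (SD, n = 4 each).

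Of the 4 members, STAR alone passed the test over all stages (limma F test, adjusted p = 0.000617), where 0.394% of the 1014 tested probes passed, and it ranked 1 of 1014 by this p. It rose 3.29-fold in large over small spherical embryos (95% interval 2.34 to 4.63, limma, adjusted p = 0.00207). In tubular embryos it stood 4.04-fold above small spherical embryos (2.87 to 5.69, adjusted p = 0.000290), and in filamentous embryos 3.81-fold (2.71 to 5.36, adjusted p = 0.000499). These comparisons share the same 4 small spherical arrays. On the arrays numbered 2 to 4 alone the log2 differences were 1.92, 2.06 and 2.06, beside 1.72, 2.02 and 1.93 on all arrays.

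**Figure D1:**
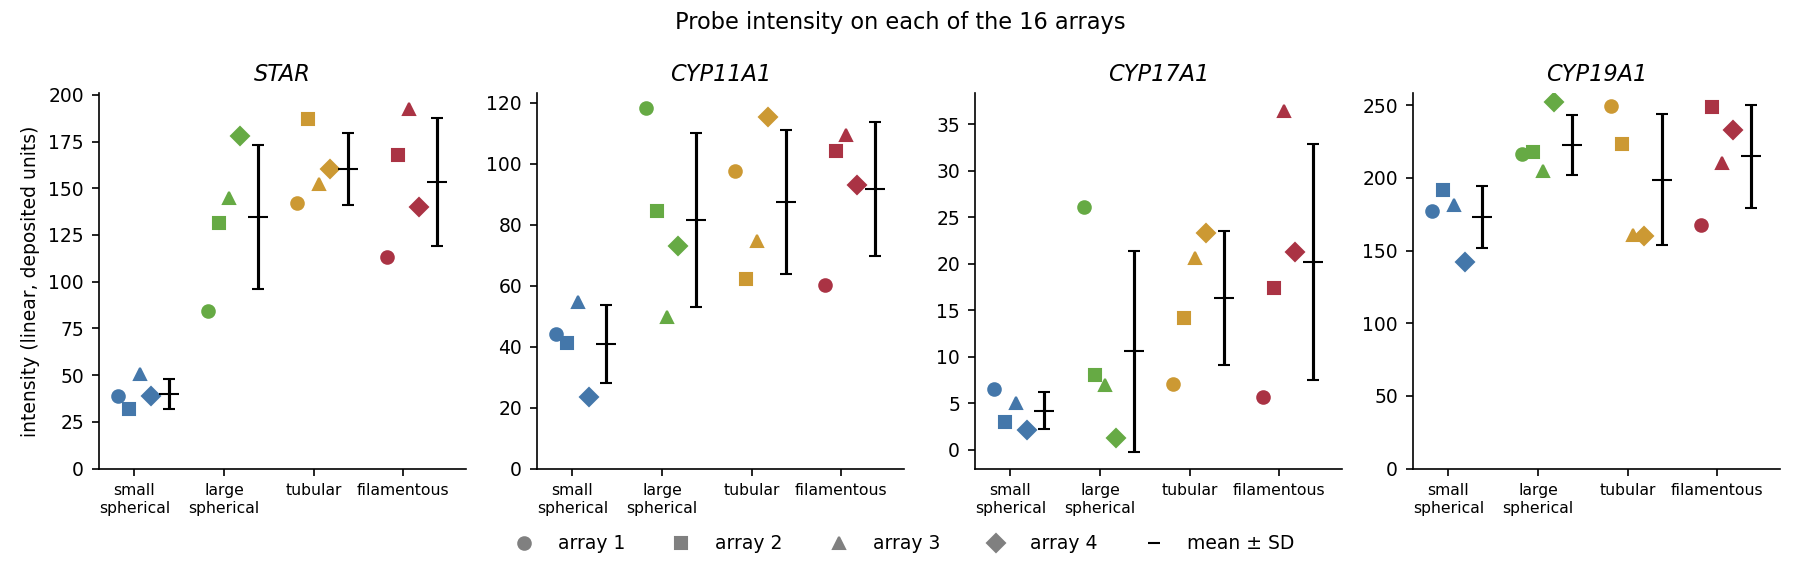
Intensity (linear scale) of each member on each of the 16 arrays, by stage. Points are single arrays, with the shape giving the array number, and bars are the mean ± SD of 4 arrays. STAR lies between 31.8 and 50.8 in small spherical embryos and at 84.6 or above on every later array, CYP17A1 spreads widely within each later stage, and CYP19A1 lies between 142 and 253 throughout.

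CYP11A1, which commits cholesterol to steroid synthesis, was about 2 times as bright in the later stages as in small spherical embryos, but these differences did not pass over all probes. It read 44.1, 41.4, 54.6 and 23.5 in small spherical embryos and 118, 84.7, 49.7 and 73.2 in large spherical ones. It read 97.7, 62.1, 74.6 and 115 in tubular and 60.4, 104, 110 and 93.2 in filamentous embryos. Large spherical array 3, at 49.7, was the 1 later array within the small spherical range, and all tubular and filamentous arrays were above that range. Small spherical embryos averaged 40.9 ± 12.9, large spherical ones 81.5 ± 28.6, tubular ones 87.5 ± 23.8 and filamentous ones 91.8 ± 22.0 (SD, n = 4 each), so the order of the means followed the order of the stages, with neighbours after the first step closer than their SDs.

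The difference of CYP11A1 was 1.99-fold in large over small spherical embryos (95% interval 1.26 to 3.14, limma, adjusted p = 0.173). It was 2.17-fold in tubular (1.37 to 3.44, adjusted p = 0.117) and 2.29-fold in filamentous over small spherical embryos (1.45 to 3.62, adjusted p = 0.0970). Each interval, taken for this gene alone, lay above 1, and the F test had an unadjusted p of 0.00503 and an adjusted p of 0.149 (rank 33 of 1014). On the arrays numbered 2 to 4 the log2 differences against small spherical embryos were 0.85 for large spherical, 1.11 for tubular and 1.44 for filamentous ones (adjusted p = 0.376, 0.205 and 0.0669), beside 0.99, 1.12 and 1.19 on all arrays. The filamentous difference passed without small spherical array 3, the brightest of its stage for this gene (log2 1.35, adjusted p = 0.0400). Without that array and filamentous array 1, the filamentous difference (log2 1.54, adjusted p = 0.0207) and the tubular one (log2 1.28, adjusted p = 0.0464) passed. The tubular one also passed with array weights (log2 1.12, adjusted p = 0.0447). Filamentous array 1 was the dimmest of its stage for this gene, so leaving out both arrays raises the filamentous difference by construction. Without small spherical array 4, the dimmest of its stage, the filamentous difference was log2 0.95 (limma, adjusted p = 0.201). Each of the 2 differences passed under 2 of 28 alternatives.

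CYP17A1, whose hydroxylase and lyase activities open the way to androgens, had a dim probe and was the most variable member within stages. It read 6.60, 3.00, 5.01 and 2.18 in small spherical embryos, and 26.1, 8.02, 7.01 and 1.24 in large spherical ones. It read 7.12, 14.2, 20.7 and 23.3 in tubular and 5.65, 17.5, 36.5 and 21.3 in filamentous embryos. Each tubular array was above the small spherical range, though array 1 only just. Large spherical embryos spanned 21.1-fold between their arrays and held both the second brightest and the dimmest value of all 16. On small spherical arrays the probe stood among the lowest 5.12% of all probes, where no background level was given to set a floor. The median gap between neighbouring distinct values on an array was 0.815 to 1.67, depending on the array. The dimmest readings are therefore coarse, and so are the folds and spans that rest on them.

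For CYP17A1 small spherical embryos averaged 4.20 ± 2.00, large spherical ones 10.6 ± 10.8, tubular ones 16.3 ± 7.24 and filamentous ones 20.2 ± 12.7 (SD, n = 4 each). No difference passed. The fold was 1.70 in large over small spherical embryos (95% interval 0.555 to 5.23, limma, adjusted p = 0.846), 3.88 in tubular (1.26 to 11.9, adjusted p = 0.264) and 4.34 in filamentous over small spherical embryos (1.41 to 13.3, adjusted p = 0.197). Single arrays moved the first of these most, with a log2 difference of 0.10 without large spherical array 1 and 1.57 without large spherical array 4, against 0.77 with both. On the arrays numbered 2 to 4, the large over small spherical log2 difference was 0.36 (limma, adjusted p = 0.928), beside 0.77 on all arrays. With the arrays numbered 1 left out in the same way, the tubular and filamentous log2 differences from small spherical embryos were 2.57 and 2.90 (adjusted p = 0.157 and 0.0637), beside 1.95 and 2.12 on all arrays. An offset of 10 before the logarithm, which damps dim values, brought them to 0.86 and 1.00 (adjusted p = 0.263 and 0.163).

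CYP19A1, the enzyme of the last step, varied least of the 4, and its probe stood between the percentiles 81.9 and 95.6 of all probes on every array, small spherical ones included. It read 177, 192, 181 and 142 in small spherical embryos and 216, 218, 205 and 253 in large spherical ones. It read 249, 224, 161 and 160.3 in tubular and 167, 249, 210.3 and 233 in filamentous embryos. Each large spherical array was above each small spherical one, whereas 2 of 4 tubular arrays and 1 of 4 filamentous arrays lay within the small spherical range. The highest of the 16 values was 1.77 times the lowest, compared with 6.06 times for STAR, 5.03 for CYP11A1 and 29.4 for CYP17A1.

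For CYP19A1 small spherical embryos averaged 173 ± 21.4, large spherical ones 223 ± 20.7, tubular ones 199 ± 45.1 and filamentous ones 215 ± 35.4 (SD, n = 4 each). No difference passed. The fold was 1.29 in large over small spherical embryos (95% interval 0.984 to 1.69, limma, adjusted p = 0.620), 1.13 in tubular (0.862 to 1.49, adjusted p = 0.800) and 1.23 in filamentous over small spherical embryos (0.941 to 1.62, adjusted p = 0.498). The intervals thus hold a rise of up to 1.69-fold as well as no change. On the arrays numbered 2 to 4 the log2 differences were 0.40, 0.07 and 0.43 in large spherical, tubular and filamentous embryos (limma, adjusted p = 0.472, 0.962 and 0.362). On all arrays they were 0.37, 0.18 and 0.30. The 2 lower tubular values came from arrays 3 and 4, and the low filamentous one from array 1.

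**Figure D2:**
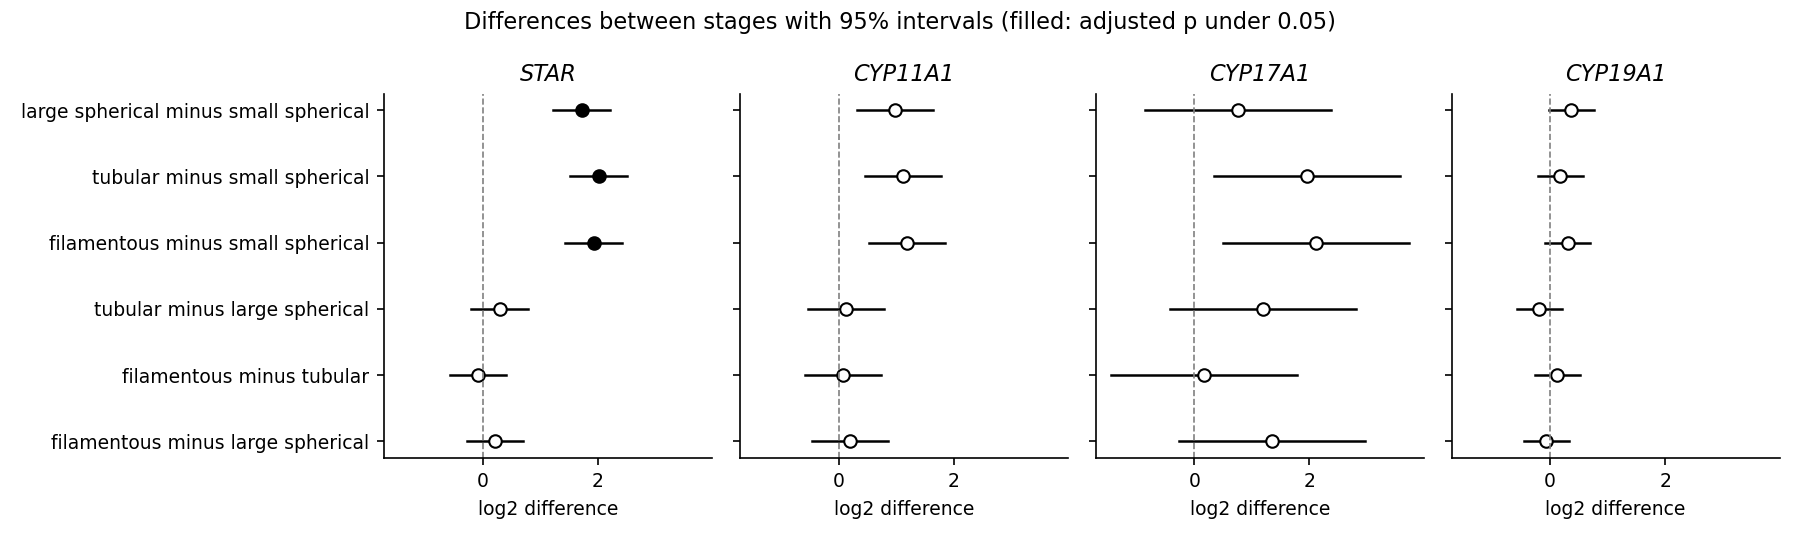
Log2 difference between stages for each member, later minus earlier stage, with 95% intervals from the limma fit to 16 arrays. Filled points have an adjusted p under 0.05 over 1014 probes. The 3 filled points are those of STAR against small spherical embryos, at 1.72, 2.02 and 1.93, and every interval among the 3 later stages crosses 0.

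All 4 members had a positive difference in large over small spherical embryos, where 45.9% of the 1014 probes did. The same held in tubular embryos, where 40.7% of probes were positive, and in filamentous embryos, where 45.6% were. STAR was the 1 member past the threshold in each of these comparisons, where 0.394%, 0.394% and 0.789% of probes passed in the higher direction. Groups without overlap were found for STAR and CYP19A1 in large against small spherical embryos (3.85% of probes had all 4 later arrays above). They were found for STAR, CYP11A1 and CYP17A1 in tubular embryos (4.54% of probes) and for STAR and CYP11A1 in filamentous embryos (4.54% of probes). At an unadjusted p below 0.05, STAR and CYP11A1 were called in the first comparison, where 9.37% of probes were. STAR, CYP11A1 and CYP17A1 were called in tubular and again in filamentous embryos, where 11.4% and 14.6% of probes were.

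Among the later stages no member moved past the threshold. Between tubular and large spherical embryos the log2 differences were 0.30 for STAR, 0.13 for CYP11A1, 1.19 for CYP17A1 and -0.19 for CYP19A1 (limma, adjusted p = 0.999 each), and 0% of the 1014 probes passed, with 3.25% at an unadjusted p below 0.05. Between filamentous and tubular embryos they were -0.08, 0.07, 0.16 and 0.13 (adjusted p = 0.994 each), and again 0% passed, with 3.35% at an unadjusted p below 0.05. Between filamentous and large spherical embryos they were 0.21, 0.20, 1.35 and -0.06 (adjusted p of 0.722 to 0.983), with 0% of probes past the threshold and 6.02% at an unadjusted p below 0.05. No member had groups without overlap in any of these, where 2.96%, 2.96% and 3.85% of probes did, and on all arrays no member had an unadjusted p below 0.05. For CYP17A1 the tubular minus large spherical difference was 1.85 without large spherical array 1, 0.39 without large spherical array 4 and 2.21 without all arrays numbered 1, and none of these passed (limma, adjusted p = 0.624 for the last). Its filamentous minus large spherical difference was 2.01 without large spherical array 1, 0.55 without large spherical array 4 and 2.53 without all arrays numbered 1, and again none passed (limma, adjusted p = 0.289 for the last). The intervals were wide for CYP17A1 (log2 -0.27 to 2.97 in filamentous minus large spherical embryos) and narrower for STAR (-0.28 to 0.70), so a further change of either gene is not shown to be absent.

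Stage accounted for different shares of each member's variation. The share of the variance of log2 intensity that lay between stages was 89.6% for STAR, 59.4% for CYP11A1, 41.6% for CYP17A1 and 32.2% for CYP19A1, with a median of 19.6% over all tested probes. The SD within stages on the log2 scale was 0.32 for STAR, 0.46 for CYP11A1, 1.19 for CYP17A1 and 0.24 for CYP19A1, beside a median of 0.38 over all probes. For CYP17A1 36 of 1014 probes had a larger SD within stages, and for CYP19A1 849 did.

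Whether the members changed by unequal amounts was tested on the difference of log2 intensities within each array, in which a shift of the whole array cancels. Of 6 pairs in 2 comparisons, 12 tests in all, none passed two-sided exact permutation tests after adjustment. In these tests 4 arrays against 4 give a p of at least 0.0286. A pair at that p, with its arrays fully apart, could pass only if most of the other tests reached it too. That none passed therefore does not show equal changes. The log2 change of STAR minus that of CYP19A1 was 1.63 in filamentous over small spherical embryos, or 3.09-fold, with all 4 filamentous arrays above the highest small spherical one (exact p = 0.0286, adjusted p = 0.114). In large over small spherical embryos this difference was 1.35, or 2.55-fold, again on 4 of 4 arrays (exact p = 0.0286, adjusted p = 0.114). For CYP11A1 minus CYP19A1 it was 0.89 in filamentous embryos, with 4 of 4 arrays above (exact p = 0.0286, adjusted p = 0.114), and 0.62 in large spherical ones, with 2 of 4 above (exact p = 0.143, adjusted p = 0.245). On the arrays numbered 2 to 4 the difference between STAR and CYP19A1 was 1.62 and 1.52 in filamentous and large spherical embryos, with all arrays above, where 3 against 3 cannot give a p below 0.1.

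STAR and CYP11A1, the 2 mitochondrial steps, differed in their change by 0.74 in filamentous and 0.73 in large over small spherical embryos (exact p = 0.0857 and 0.257, adjusted p = 0.171 and 0.386). Pairs with CYP17A1 were too variable to order. For STAR minus CYP17A1 the value was 0.95 in large and -0.19 in filamentous over small spherical embryos (adjusted p = 0.686 and 0.842). For CYP11A1 minus CYP17A1 it was 0.22 in large spherical and -0.92 in filamentous embryos (adjusted p = 0.886 and 0.137), and for CYP17A1 minus CYP19A1 0.40 in large spherical and 1.81 in filamentous embryos (adjusted p = 0.823 and 0.137).

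**Figure D3:**
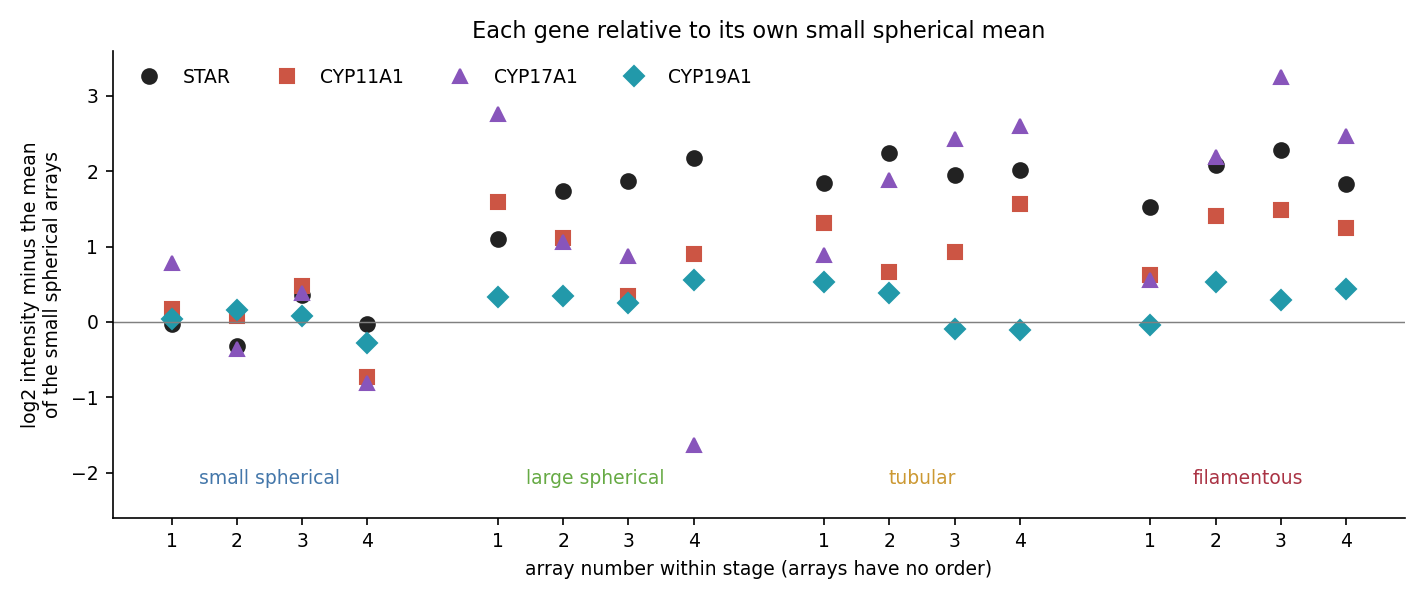
Log2 intensity of each member on each array, minus the mean of the same gene over the 4 small spherical arrays (0 on the axis). Arrays are grouped by stage and have no order within it. STAR stands above 1 on every later array, CYP19A1 stays below 1 on all, and CYP17A1 covers the widest span, from its lowest point on large spherical array 4 to its highest on filamentous array 3.

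Within a stage, arrays did not rank alike for all members. Filamentous array 1 was the lowest of its stage for all 4 genes, at 113 for STAR, 60.4 for CYP11A1, 5.65 for CYP17A1 and 167 for CYP19A1. Small spherical array 4 was the lowest of its stage for the 3 CYP genes, and array 2 for STAR. Large spherical array 1 was the highest of its stage for CYP11A1 and CYP17A1 and the lowest for STAR, while array 4 was the highest for STAR and CYP19A1 and the lowest for CYP17A1.

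After removal of stage means, the deviations of CYP11A1 and CYP17A1 across the 16 arrays had a Pearson r of 0.54 (exact permutation within stages, two-sided p = 0.0639, adjusted p = 0.383 over 6 pairs). Spearman's rho was 0.61 (exact permutation p = 0.0329, adjusted p = 0.197). Without small spherical array 4 and large spherical array 3, the 2 farthest from the median of CYP11A1, r was 0.60 (exact permutation p = 0.0311, adjusted p = 0.159). On the 12 arrays numbered 2 to 4 it was 0.28 (exact permutation p = 0.444) and rho 0.38 (exact permutation p = 0.319). The relation thus did not pass after adjustment and was weaker without the arrays numbered 1.

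The other 5 pairs had r between -0.19 and 0.34 and rho between -0.30 and 0.28 (exact permutation, smallest p = 0.207 for r and 0.299 for rho, smallest adjusted p = 0.611 and 0.625). For STAR and CYP17A1, r was -0.19 on all arrays and 0.64 without large spherical arrays 1 and 4 (exact permutation p = 0.0531, adjusted p = 0.159), so its sign rested on those arrays.

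**Figure D4:**
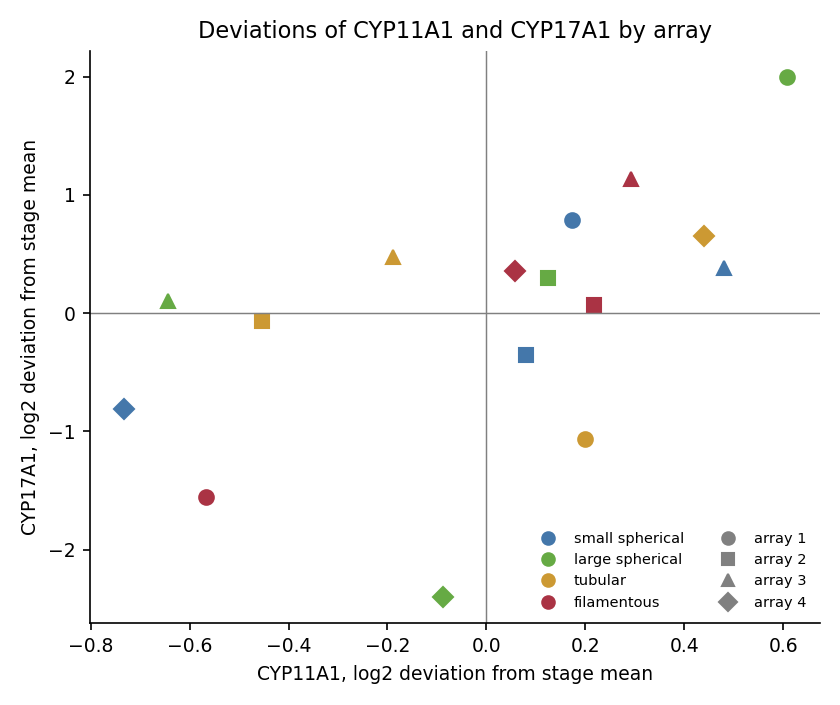
Deviation of each array from its stage mean (log2) for CYP11A1 (horizontal) and CYP17A1 (vertical), with colour for stage and shape for array number. Large spherical array 1 lies at the upper right (0.61 and 2.00), filamentous array 1 and small spherical array 4 at the lower left, and large spherical array 4 lies far down (-0.09 and -2.40). Pearson's r is 0.54 over the 16 arrays.

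The genes whose log2 pattern over the 16 arrays was most like that of a member are given by Pearson's r, as a description, since the arrays share stages. For STAR these were TGFB3, a secreted transforming growth factor (r = 0.94), PLAC1, a trophoblast gene (0.92), PDPN, the membrane mucin podoplanin (0.83), ADSL, an enzyme of purine synthesis (0.81), and CARHSP1 (0.78). PLAC1 is also 1 of the 4 trophectoderm markers, and it read 33.7 ± 10.9 in filamentous and 12.1 ± 4.20 in small spherical embryos (SD, n = 4 each), a rise that passed (limma, adjusted p = 0.0159). The keratins among these markers did not pass. KRT19 read 135 ± 30.6 in filamentous and 93.6 ± 26.6 in small spherical embryos (adjusted p = 0.274), KRT8 read 23.9 ± 8.47 in filamentous and 19.5 ± 4.60 in small spherical embryos (adjusted p = 0.723), and KRT18 read 250.4 ± 47.4 in filamentous and 269 ± 39.9 in small spherical embryos (adjusted p = 0.872). The part of trophectoderm content in the rise of STAR was not tested.

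For CYP11A1 the most similar were PDPN (r = 0.85), SLC39A2, a zinc transporter (0.83), LGALS3, a galectin (0.81), TM4SF1 (0.80) and CALD1, an actin-binding caldesmon (0.80). For CYP17A1 they were LOC100524999 (0.74), HSPA13, a chaperone of the heat shock family (0.72), CYP11A1 itself (0.70), SEC23B, a coat protein of transport vesicles (0.68), and ATXN10 (0.65). CYP11A1 was thus the third most similar of 674 named probes to CYP17A1. For CYP19A1 they were PTGES, prostaglandin E synthase (0.77), KRT8, a simple epithelial keratin (0.74), TM4SF1 (0.73), SFN, a protein of epithelial cells (0.71), and RCAN1, an inhibitor of calcineurin (0.68). PDPN was thus named for both STAR and CYP11A1, and TM4SF1 for both CYP11A1 and CYP19A1.

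Among themselves the members were alike to different degrees over the 16 arrays, stages included. The correlation was 0.71 between STAR and CYP11A1, 0.70 between CYP11A1 and CYP17A1, 0.54 between CYP11A1 and CYP19A1, 0.50 between STAR and CYP19A1, 0.48 between STAR and CYP17A1, and 0.10 between CYP17A1 and CYP19A1. Probe numbers of STAR and CYP11A1 are 1006 and 1003. The 19 other tested probes within 10 numbers of STAR, CYP11A1 among them, had a median log2 difference of -0.06 in large over small spherical embryos and 0.05 in filamentous over small spherical embryos, with 8 and 11 of them positive. Their differences ran from -0.98 to 1.26 and from -0.55 to 1.19. Whether probes of close number lie close together on the membrane was not tested.

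Of the further genes listed for the pathway, 16 were measured, and none passed in any of the 6 comparisons between stages. In large over small spherical embryos 8 of the 16 were positive (45.9% of all tested probes), with a median log2 difference of 0.03 (all probes -0.03), and 5 had an unadjusted p below 0.05 (9.37% of all probes). In tubular over small spherical embryos 7 were positive (40.7% of all probes), with a median of -0.02 (all probes -0.06), and 6 had an unadjusted p below 0.05 (11.4%). In filamentous over small spherical embryos 11 were positive (45.6% of all probes), with a median of 0.09 (all probes -0.03), and 4 had an unadjusted p below 0.05 (14.6%). For the list genes named below, other than PGR and PGRMC1, the comparison shown first is the one with small spherical embryos in which the gene differed most.

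Of 37 listed genes that make, carry or store cholesterol, 8 were measured (DBI, VDAC1, NPC2, APOE, FDFT1, CYP51, NSDHL and PMVK), and none passed. Their median log2 difference was -0.08 in large, -0.18 in tubular and 0.03 in filamentous over small spherical embryos, with 1, 0 and 4 of the 8 positive, where 45.9%, 40.7% and 45.6% of all probes were. NSDHL, a sterol dehydrogenase of cholesterol synthesis, read 58.1 ± 6.51 in tubular and 93.6 ± 11.7 in small spherical embryos (log2 -0.69, limma, adjusted p = 0.198). APOE, a lipoprotein that carries cholesterol, read 75.1 ± 8.29 in tubular and 102 ± 15.4 in small spherical embryos (log2 -0.44, adjusted p = 0.240). In filamentous over small spherical embryos its log2 difference was -0.08. FDFT1, squalene synthase, read 180.2 ± 28.5 in filamentous and 149 ± 13.8 in small spherical embryos (log2 0.27, adjusted p = 0.548). In large over small spherical embryos its log2 difference was -0.05.

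Of the genes that pass electrons to or act beside the CYP enzymes, 2 of 7 listed were measured, CYB5A and CYB5B, and both were positive in all 3 comparisons with small spherical embryos. CYB5A, the cytochrome b5 known to promote the lyase reaction of CYP17A1, read 162 ± 16.3 in large and 93.2 ± 25.9 in small spherical embryos (log2 0.83, limma, adjusted p = 0.0545). CYB5B, its mitochondrial relative, read 340 ± 127 in filamentous and 159 ± 91.1 in small spherical embryos (log2 1.17, adjusted p = 0.173).

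Other steroid-converting enzymes were represented by 2 of 22 listed genes, HSD17B4, a peroxisomal enzyme that can oxidise oestradiol, and HSD17B12. HSD17B4 read 115 ± 17.0 in large and 65.3 ± 23.2 in small spherical embryos (log2 0.89, limma, adjusted p = 0.165). HSD17B12 read 86.4 ± 9.20 in large and 60.7 ± 14.9 in small spherical embryos (log2 0.53, adjusted p = 0.192). In filamentous over small spherical embryos its log2 difference was 0.22. Of 20 regulators only PRKAR1A, a regulatory subunit of protein kinase A, was measured. It read 38.7 ± 2.00 in tubular and 51.9 ± 6.42 in small spherical embryos (log2 -0.41, adjusted p = 0.554), with a log2 difference of -0.04 in filamentous embryos.

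Receptors that could respond to the products were measured for 3 of 11 listed genes. ESR2, an oestrogen receptor, read 38.0 ± 17.1 in filamentous and 14.4 ± 13.9 in small spherical embryos (log2 1.73, limma, adjusted p = 0.169). PGR, the progesterone receptor, was dim, at 4.58 ± 4.61 in filamentous and 4.02 ± 4.39 in small spherical embryos (log2 0.08, adjusted p = 0.987). Its log2 difference was 1.26 in large and 0.01 in tubular over small spherical embryos (limma, adjusted p = 0.729 and 0.993). PGRMC1, a membrane component that binds progesterone, read 114 ± 13.5 in filamentous and 111 ± 26.3 in small spherical embryos (log2 0.06, adjusted p = 0.953).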

How the data were processed

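The deposited table held 1 linear intensity per probe and array; per the labels, amplified RNA was converted to a phosphorus-32 target and hybridised to cDNA membranes. Scanning, background subtraction and normalization by the authors are not given in any source used here. All 16 columns were used (0 left out). Array medians spanned 0.185 on the log2 scale, under a limit of 0.2, so values were taken as normalized and transformed to log2 with no pseudocount. 1 constant probe was left out, leaving 1014. In the platform annotation 676 probes had 1 symbol, 15 several and 324 none, and all 4 members were found in the RefSeq gene table (assembly Sscrofa11.1), used for names and neighbours only.

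Stage means were estimated in 1 linear model of the 16 arrays (limma 3.58.1, R 4.3.3), with an F test, 6 contrasts and two-sided p-values adjusted by Benjamini-Hochberg over 1014 probes, at a threshold of 0.05. Folds compare geometric means, and intervals use the moderated error without adjustment. Exact permutation tests were run in Python 3.11.15 with scipy 1.17.1 and tested on simulated data, as was the fit. Genes with several probes took the brightest. Named genes were the members, the 5 most similar named genes of each, the measured markers, and the list genes past the threshold or with the largest F, up to 3 per list. The members, lists and alternatives were chosen with earlier results of these data known. Same-numbered arrays deviated together in large against small spherical embryos (correlations of 0.219 to 0.495), but not in the 5 other contrasts, each with at least 1 pair under 0.1. The main fit and the permutation tests did not pair arrays by number in any contrast. A block for the number in the titles was fitted as an alternative only. Alternatives were other normalizations, filters, offsets, blocks, weights and sets of arrays.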

Additional observations from a re-analysis of the deposited data

How the results depend on the processing

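STAR passed in all 3 comparisons with small spherical embryos under all 28 alternatives of each (log2 1.50 to 1.93 in large spherical, 1.77 to 2.14 in tubular and 1.70 to 2.19 in filamentous embryos). CYP11A1 passed in tubular embryos with array weights (1.12) and without small spherical array 3 and filamentous array 1 together (1.28), and in filamentous embryos without both (1.54). With each array left out in turn its filamentous difference was 0.95 to 1.38, and it passed without small spherical array 3. The filter on the dimmest 25% of probes removed CYP17A1, so no value was had there. The values whose sign turned were all uncalled. CYP19A1 in filamentous minus large spherical embryos was 0.000511 with quantile and 0.0175 with cyclic loess normalization, 0.0375 on the arrays numbered 2 to 4, 0.0508 without both arrays, and -0.14 to 0.0508 with single arrays left out. STAR in filamentous minus tubular embryos was 0.0509 without both arrays and -0.20 to 0.0509 with single arrays left out. Single arrays also spanned -0.0849 to 0.33 for CYP11A1 in tubular minus large spherical, -0.0773 to 0.26 in filamentous minus tubular and -0.0112 to 0.41 in filamentous minus large spherical embryos, and -0.22 to 0.68 for CYP17A1 in filamentous minus tubular embryos. An offset of 10 gave 0.70 for STAR minus CYP17A1 and 0.0139 for CYP11A1 minus CYP17A1 in filamentous over small spherical embryos, and CYP17A1 minus CYP19A1 in large over small spherical embryos was -0.0322 on the arrays numbered 2 to 4. With single arrays left out, in large over small spherical embryos, CYP11A1 minus CYP17A1 ran from -0.55 to 0.69 and CYP17A1 minus CYP19A1 from -0.28 to 1.26, and in filamentous over small spherical embryos STAR minus CYP17A1 from -0.57 to 0.0768. Correlations of deviations that turned were those of STAR and CYP11A1 (0.158 on the arrays numbered 2 to 4, 0.261 without the 2 farthest arrays, -0.282 to 0.317 with single arrays left out), STAR and CYP17A1 (0.643 without the 2 farthest, -0.462 to 0.254) and CYP17A1 and CYP19A1 (0.0429 without the 2 farthest, -0.435 to 0.0648). The replicate block left the side of every member call as it was (STAR in large over small spherical embryos, adjusted p = 0.00165), and counts of probes past the threshold with it were 10 in the F test, 11 in tubular and 15 in filamentous over small spherical embryos, beside 4, 4 and 9. The F count was 2 without the dimmest probes, 7 with array weights, 10 with the arrays numbered 1 as a batch term, 17 without both arrays and 1 to 13 with single arrays left out. The count in large over small spherical embryos (4) was 7 without the dimmest probes, 9 with a variance trend, 7 with the batch term, 36 without both arrays and 1 to 26 with single arrays left out, with 26 without small spherical array 3 and 11 without filamentous array 1. That in tubular embryos was 13 with the offset and also without the dimmest probes, 29 with array weights and also without both arrays, 14 with the trend and 3 to 16 with single arrays left out. That in filamentous embryos was 14 with the batch term, 31 without both arrays, 2 with only the 2 stages in the fit and 3 to 28 with single arrays left out. The cause of these shifts was not tested. Dim values, 1 probe per gene and 4 arrays per stage limit the precision.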
